A study of Drosophila melanogaster with 2 samples.

Results

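Chemosensory receptor genes of the fruit fly Drosophila melanogaster were examined on 2 two-colour arrays that compared larvae carrying a B52 transgene with control larvae. The genes were taken by name: every probe annotated with exactly 1 gene whose symbol begins with Or, Gr or Ir followed by a digit. That gave 169 probes for 164 genes, among 12236 genes with such a probe on the array. They were 57 odorant receptors (Or), 56 gustatory receptors (Gr) and 51 ionotropic receptors (Ir), and 161 of the 164 had a single probe. The RefSeq gene table lists 186 symbols of this form, and 22 of them had no probe of their own here, among them Or19a, whose probe is annotated with a second gene.

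The larvae of interest came from the cross GMR X GFP-B52, and the control larvae came from GMR X GFP-NLS. In the first, B52, a splicing factor of the SR protein family, is made as a fusion with green fluorescent protein. In the second, green fluorescent protein is sent to the nucleus by a localisation signal. Both crosses thus share GMR, in fly genetics a promoter active in the developing eye, and both carry green fluorescent protein. The labels give no age, sex, number of animals or dissected tissue, and they leave unsaid if each array had an RNA extract of its own. The B52 RNA was labelled with Cy5 on replicate 1 and with Cy3 on replicate 2, and the RNA is labelled as polyA RNA except for the control of replicate 1, labelled cytoplasmic. The spread behind every p-value is thus that of 2 arrays and may be technical. The comparison asks which transcripts differ when B52 is made in excess. As labelled, RNA preparation also differs between the crosses on replicate 1, and its part in the values was not tested.

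Odorant receptors are membrane proteins of olfactory neurons that form odour-gated ion channels with the shared subunit Orco. Gustatory receptors serve taste neurons, and a few detect carbon dioxide or internal sugar. Ionotropic receptors derive from glutamate receptors and work with co-receptors such as Ir8a, Ir25a, Ir76b and Ir93a in smell, taste, temperature and humidity sensing. In the larva these genes are used by small groups of neurons in the head organs, so their RNA is a small part of a whole animal's RNA. A larva uses a subset of the genes, and many others are known from the adult antenna, maxillary palp, proboscis and legs.

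The deposited values are log ratios whose direction and log base are not stated, and no intensities were analysed here. Each result is therefore given in 2 readings of B52 over control. The channel reading takes the deposited values as they are, and the dye reading takes them as Cy5 over Cy3 and turns the sign of replicate 2. Values above 0 stand for more RNA in B52 larvae under the reading in question, and each fold is stated for both log bases, 10 and 2. By construction, a gene with the same deposited sign on both arrays differs between larvae in the channel reading and between dyes in the dye reading. With 2 arrays of unstated direction these cannot be told apart. In larval RNA, fewer cells of a type and less RNA per cell cannot be told apart either. Because the values are ratios, the labelled larval material could not be checked against levels of marker genes.

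No receptor probe passed the test in either reading. Deposited log ratios of the receptors nevertheless ran the same way on both arrays more often than those of the array as a whole, mostly above 0. The sugar receptor genes Gr43a and Gr64c, the larval odorant receptor gene Or94b and the taste receptor gene Ir56d had the highest means of the 2 arrays as deposited. The sugar receptor gene Gr61a was below 0 on both arrays at a like size. Read by dye, these differences largely cancelled, and Ir76a, an amine receptor of the antenna, was the single gene at least 0.301 from 0 with the same sign on both arrays. Receptor probes also lacked a value more often than other probes, gustatory receptors most of all.

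A missing value leaves a probe out of every comparison, so blanks come first. Of the 169 receptor probes, 28.4% were blank on replicate 1 and 18.9% on replicate 2, against 10.5% and 9.83% of all 13147 probes with 1 gene. At least 1 array was blank for 32.5% of receptor probes and for 14.8% of all probes. The gustatory family had the highest share, with 44.1% of its 59 probes blank on replicate 1 and 23.7% on replicate 2. For the 58 odorant receptor probes the shares were 19% and 13.8%, and for the 52 ionotropic receptor probes 21.2% and 19.2%. Genes for odorant-binding proteins (Obp), small secreted proteins of the same sense organs, had 18% and 16% of 50 probes blank. All 3 receptor families and the Obp genes thus lay above the array as a whole on each array, and the gap between arrays was widest for gustatory receptors.

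**Figure D1:**
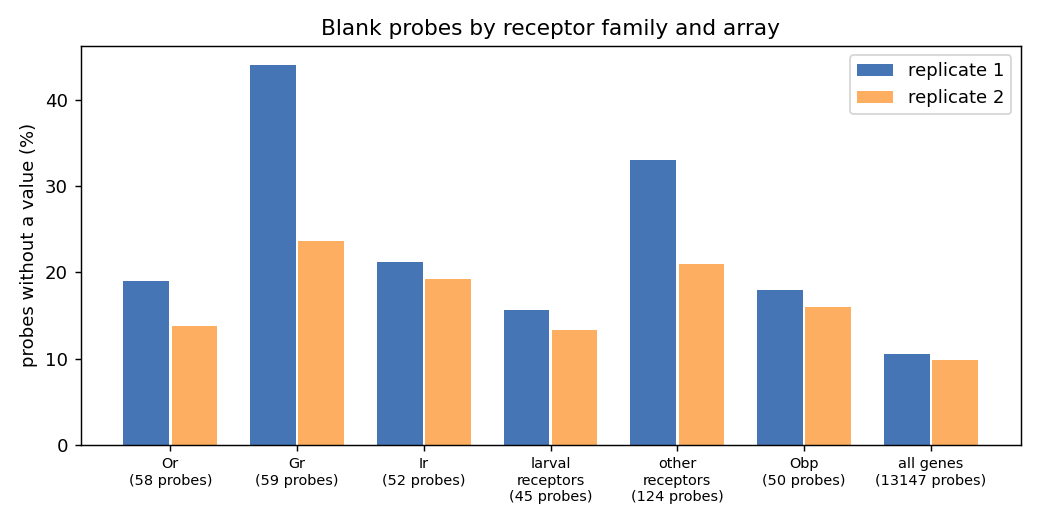
Share of probes without a value (y axis, percent) on replicate 1 (blue) and replicate 2 (orange) for each receptor family, for receptors on and off a list of larval receptors, for odorant-binding protein genes (Obp) and for all probes with 1 gene. Gustatory receptors reached 44.1% on replicate 1, where all probes together had 10.5%.

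Receptors with known larval use were blank less often than the others. A list of 42 receptor genes with reporter or RNA evidence in larval neurons was drawn from general knowledge and is not complete, least of all for Gr and Ir. Of these, 41 had probes. At least 1 array was blank for 20% of the 45 probes of larval receptors and for 37.1% of the 124 probes of other receptors. The gap held in every family: 20% against 30.3% for Or, 26.7% against 52.3% for Gr, and 0 of 5 probes against 27.7% for Ir. The table does not record why a spot is blank, and the part of dimness or of flags was not tested. Known larval receptors nonetheless lost values, among them Or82a, a receptor for geranyl acetate, with no value on either array, and the taste receptor Gr22e, likewise.

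In all, 112 of the 164 genes had a probe measured on both arrays: 42 Or, 32 Gr and 38 Ir. A further 23 genes had no value at all. Adult genes among these were Or22a, a receptor for fruit esters, the trichoid receptors Or65a and Or65b, the sugar receptor Gr64a, and the antennal receptors Ir31a, Ir64a and Ir84a. Ir64a serves acid sensing and Ir84a responds to phenylacetic acid. Or56a, the geosmin receptor, had a value on replicate 1 alone. Of the 52 genes not measured on both arrays, 24 were Gr, 15 Or and 13 Ir.

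Over the 112 genes the median log ratio in the channel reading was 0.0777 ± 0.0014 (SD of the 2 array medians), 1.20-fold if log10 and 1.06-fold if log2, against 0.0085 over all 10584 genes measured on both arrays. The median is taken over gene means, and need not fall between the medians of single arrays, which were 0.066 on replicate 1 and 0.064 on replicate 2. The spots run in 24 blocks of 656 in ID order, inferred from a repeat of unnamed positions and called print blocks here. With each block's median removed the receptor median was 0.0457, against 0.0009 over all genes. By dye the receptor median was 0.0043 ± 0.0919, against -0.0075 over all genes. The channel median thus stood above that of all genes on each array, and the dye median had array values of opposite sign.

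Signs were then counted. By channel 58 receptor genes (51.8%) were positive on both arrays, against 28.1% of all genes, and 24 (21.4%) were negative on both, against 24.3%. The other 30 had opposite signs. With print-block medians removed, 54 of the 112 (48.2%) were positive on both, against 24.7% of all genes. Negative on both were 16 of the 112, against 23.8% of all genes. By dye 17 (15.2%) were positive on both arrays, against 21.9% of all genes, and 13 (11.6%) were negative on both, against 25.6%. Across the 112 genes the deposited values of the arrays had a Pearson correlation of 0.308 and a Spearman correlation of 0.446, against 0.015 and 0.063 across all genes. The points share the same 2 hybridisations and the same print run, and genes are not independent replicates.

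**Figure D2:**
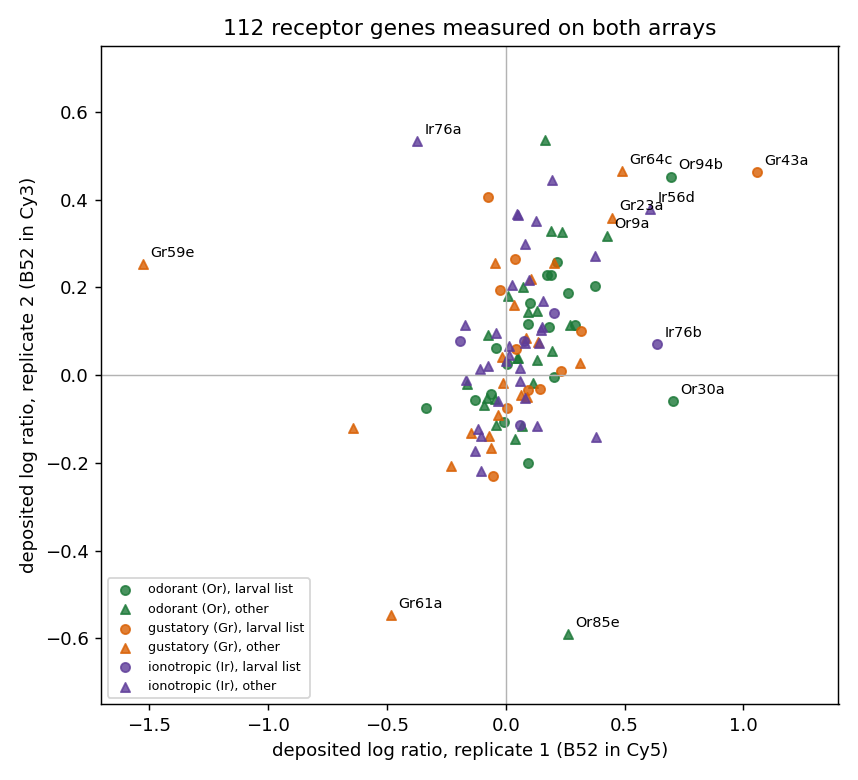
Deposited log ratio of each receptor gene on replicate 1 (x axis) and replicate 2 (y axis), by family (colour) and by presence on the larval list (circles) or not (triangles). Of 112 genes, 58 lie in the upper right and 24 in the lower left region, where both arrays have the same sign.

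Limma, which tests each probe against 0 with a variance shared over probes, was run on all 12500 probes measured on both arrays. At an adjusted p of 0.05 it called 0 of the 114 receptor probes tested, against 0% of all probes in each reading. Neither limma's robust variant nor an ordinary test without shared variance called any. Read by channel, 18 receptor probes (15.8%) had an unadjusted p under 0.05 by limma, against 6.52% of all probes, and 15 of the 18 were positive. By the robust variant 18 did and by the ordinary test 11. The 18 were 8 of 43 Or probes, 6 of 32 Gr probes and 4 of 39 Ir probes. Read by dye, 6 receptor probes (5.26%) did by limma, against 6% of all probes, 4 by the robust variant and 1 by the ordinary test. The lowest adjusted p of a receptor was 0.705 by channel and 0.396 by dye.

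A rule of size was set beside the test: the same sign on both arrays and an absolute log ratio of at least 0.301 on each, the log10 size of a 2-fold change. By channel 7 receptor genes passed, where 1.15% of all genes did. Higher in B52 larvae were 6 of them, where 0.728% of all genes were, and lower was 1, where 0.425% were. The higher genes were Gr43a, Or94b, Ir56d, Gr64c, Gr23a and Or9a, and the lower gene was Gr61a. With print-block medians removed Gr23a and Or9a no longer passed and the other 5 did. The nearest gene inside the limit was Or9a, whose array nearer to 0 had 0.318, and the nearest outside was Ir40a, with 0.272. By dye 1 receptor gene passed, where 1.32% of all genes did. It was Ir76a, lower in B52 larvae, where 0.189% of all genes were, and 0 receptors were higher, where 1.13% of all genes were. With the limit at 1, the log2 size of a 2-fold change, 0 receptors passed under either reading.

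The families are described in turn, odorant receptors first. The 42 measured Or genes had a channel-reading median of 0.0968 ± 0.0279 (SD of the 2 array medians; 0.0985 on replicate 1 and 0.059 on replicate 2) and a dye-reading median of -0.002 ± 0.111. By channel, 24 of them (57.1%) held a positive sign across arrays and 9 (21.4%) a negative one, and by dye 7 (16.7%) and 2 (4.76%) did. Or94b, a larval receptor, stood at 0.696 on replicate 1 and 0.452 on replicate 2 as deposited. Both arrays were far above 0, with a channel mean of 0.57 ± 0.173 (SD, n = 2 arrays; 3.75-fold if log10, 1.49-fold if log2; limma adjusted p = 0.705) and a dye mean of 0.12 ± 0.812. Its genomic neighbour Or94a, also a larval receptor, had 0.093 and 0.117, positive on both arrays but much closer to 0. Or9a, a receptor of the adult antenna, had 0.425 and 0.318, for a channel mean of 0.37 ± 0.0757 (limma adjusted p = 0.705). Its dye mean was 0.05 ± 0.525. Or43a, likewise from the antenna, had 0.239 and 0.327.

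Several other larval odorant receptors were positive on both arrays as deposited. Or49a, which detects a parasitoid wasp's odour, had 0.375 and 0.204, Or74a had 0.214 and 0.258, and Or45b had 0.19 and 0.227. Or7a, which is used in the larva and the adult antenna, had 0.263 and 0.186. These genes other than Or94b were chosen after their values were seen. Or30a was high on replicate 1 alone, with 0.706 against -0.06 on replicate 2.

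Of the 19 larval odorant receptors measured, 11 were positive and 4 negative on both arrays as deposited, and the 4 negative ones were as follows. Or42a, which larvae use to find food odours, had -0.13 and -0.057, below 0 on both arrays. Or42b, a receptor for fruit esters, had -0.006 and -0.106. Or24a had -0.06 and -0.042, and Or63a had -0.336 and -0.074, for a channel mean of -0.21 ± 0.185 and a dye mean of -0.13 ± 0.29, with the arrays of opposite sign in the dye reading. For these 4 genes the limma adjusted p was at least 0.809 in both readings. With print-block medians removed the channel mean of Or42b was positive, 0.0335, and that of Or42a, -0.09 as deposited, was -0.0333. Or35a, a receptor of larvae and of adult coeloconic sensilla, had 2 probes that disagreed: 1 had 0.163 and -0.599 and the other 0.026 and 0.197.

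Among adult pheromone receptors, Or67d, the receptor for cis-vaccenyl acetate, had -0.08 and -0.053, and Or47b had 0.133 and 0.035. Or88a, the remaining measured gene of that list, had -0.046 and -0.054. Or92a, an antennal receptor, had -0.093 and -0.068. As deposited, each of these genes had 1 sign on both arrays, negative for Or67d, Or88a and Or92a and positive for Or47b. The channel mean of Or92a, -0.08 as deposited, was 0.0143 with print-block medians removed. The odorant receptor furthest from 0 on both arrays by dye was Or85e, with 0.262 on replicate 1 and -0.59 on replicate 2 as deposited, for a dye mean of 0.43 ± 0.232 (limma adjusted p = 0.509). Or85e is used by the same class of palp neuron as Or33c. Or33c had 0.167 and 0.536 as deposited, so on replicate 2 the pair lay on opposite sides of 0. Or43b, with 0.067 and -0.115, had a dye mean of 0.09 ± 0.0339, and Or10a, with -0.073 and 0.091, had -0.08 ± 0.0127. The larval receptor Or33a, at -0.04 and 0.062, had a dye mean of -0.05 ± 0.0156. The dye means of Or10a and Or33a were -0.0535 and -0.0225 with print-block medians removed.

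The 32 measured gustatory receptors had a channel-reading median of 0.0535 ± 0.0032 (SD of the 2 array medians; 0.039 on replicate 1 and 0.0345 on replicate 2) and a dye-reading median of 0.0207 ± 0.052. Positive across arrays were 13 (40.6%) by channel and 5 (15.6%) by dye, and negative were 9 (28.1%) by channel and 5 (15.6%) by dye. Their spread on replicate 1 was the widest of the families, with an SD over genes of 0.401, against 0.199 for both Or and Ir and 0.18 for all genes. Leading this spread was Gr59e, a gene of bitter taste neurons, with -1.524 on replicate 1 and 0.252 on replicate 2. Its arrays disagreed in the channel reading, with a mean of -0.64 ± 1.26, and pointed the same way in the dye reading, with a mean of -0.89 ± 0.899 (limma adjusted p = 0.587).

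Sugar receptors were read from a list of the clade of Gr5a, Gr61a and the Gr64 genes with the fructose receptor Gr43a, of a separate lineage, added. The list held genes past the size rule on both sides of 0 by channel. Gr43a, active in taste neurons, brain and gut, stood at 1.056 on replicate 1 and 0.463 on replicate 2 as deposited. Both were high, but they lay further apart than those of any other gene past the size rule by channel, with a channel mean of 0.76 ± 0.419 (SD, n = 2 arrays; 5.75-fold if log10, 1.69-fold if log2; limma adjusted p = 0.705) and a dye mean of 0.30 ± 1.07. Gr64c had 0.489 and 0.465, nearly equal, for a channel mean of 0.48 ± 0.017 (limma adjusted p = 0.705) and a dye mean of 0.01 ± 0.675. Gr61a, a glucose receptor, had -0.481 and -0.547, the reverse sign at a like size, for a channel mean of -0.51 ± 0.0467 (3.27-fold if log10, 1.43-fold if log2; limma adjusted p = 0.705) and a dye mean of 0.03 ± 0.727. Gr64f, a partner of several sugar receptors, had 0.311 and 0.027. Gr5a, the trehalose receptor, had 0.065 and -0.045. Of the 9 genes of this list, 7 had probes and 5 were measured on both arrays, 3 of them positive on both arrays as deposited and 1 negative on both.

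The broadly used receptors for bitter substances and the carbon dioxide receptor were read next. Gr66a, a receptor of most bitter neurons, had 0.234 and 0.01, and Gr33a, its frequent partner, had 0.041 and 0.265. Both were positive on each array as deposited, each with 1 array near 0. Gr32a, with -0.024 and 0.193, and Gr39a, with 0.004 and -0.076, had opposite signs on the arrays. For Gr39a this pair is from the 1 probe measured on both arrays. Another of its probes had 0.072 on replicate 2 alone, and the rest had no value. The list of bitter receptors held 5 genes, all measured, with 2 positive and 1 negative on both arrays as deposited. Gr89a, of adult bitter neurons, had -0.228 and -0.207, for a channel mean of -0.22 ± 0.0148 (limma adjusted p = 0.762), which was -0.128 with print-block medians removed. Gr21a and Gr63a together form the carbon dioxide receptor. Gr21a had -0.053 and -0.231 and Gr63a 0.315 and 0.101, so these partner genes lay on opposite sides of 0 on both arrays as deposited. By dye their means were 0.09 ± 0.201 and 0.11 ± 0.294. Gr23a, past the size rule, had 0.446 and 0.359, for a channel mean of 0.40 ± 0.0615 (limma adjusted p = 0.705). Its dye mean was 0.04 ± 0.569. Gr98a had -0.144 and -0.133.

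Most other gustatory receptors that held their sign by dye lay near 0. Gr2a, a taste receptor of the larva, had -0.076 and 0.405 as deposited and a dye mean of -0.24 ± 0.233 (limma adjusted p = 0.919). Gr68a, known from the male foreleg, had -0.044 and 0.255. On the positive side in the dye reading stood Gr28a, with a dye mean of 0.06 ± 0.0417, Gr58b with 0.07 ± 0.0276 and Gr5a with 0.06 ± 0.0141. Gr28b, which acts in light and temperature sensing, had 0.143 and -0.032 as deposited and a dye mean of 0.09 ± 0.0785.

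**Figure D3:**
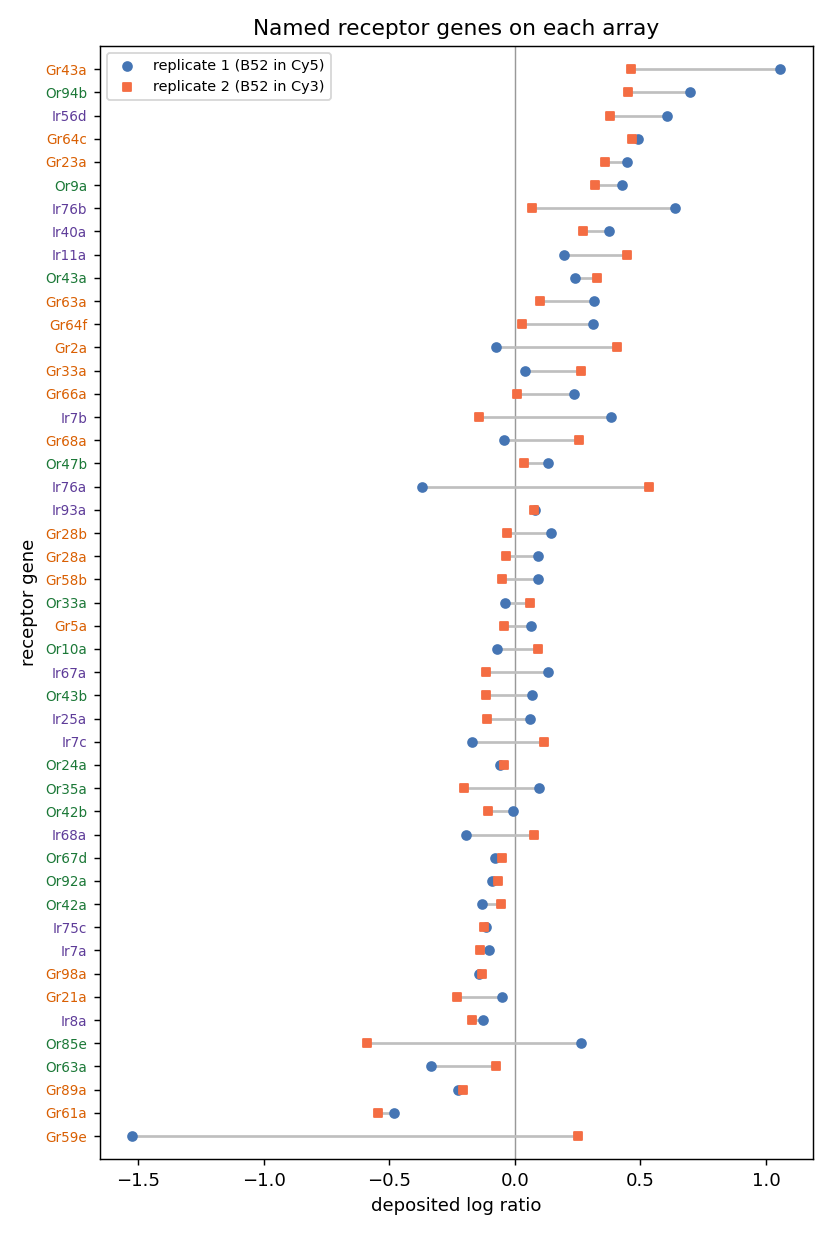
Deposited log ratio (x axis) of the named receptor genes on replicate 1 (blue circles) and replicate 2 (orange squares), ordered by their mean, with Or names in green, Gr in orange and Ir in purple. The line between the points is the gap between arrays, shortest at Ir93a and longest at Gr59e.

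The 38 measured ionotropic receptors had a channel-reading median of 0.0592 ± 0.0095 (SD of the 2 array medians; 0.0595 on replicate 1 and 0.073 on replicate 2) and a dye-reading median of 0.002 ± 0.0937. By channel, a positive sign held across arrays for 21 genes (55.3%) and a negative one for 6 (15.8%), and by dye for 5 (13.2%) and 6 (15.8%). The deposited values of the co-receptors did not share 1 sign, and limma called none of these genes. Ir76b had 0.638 and 0.07, far apart, for a channel mean of 0.35 ± 0.402 (limma adjusted p = 0.79). Ir93a had 0.079 and 0.077, Ir25a had 0.06 and -0.113, and Ir8a had -0.127 and -0.172. Ir76b and Ir93a were thus above 0 on both arrays, Ir8a below 0 on both, and Ir25a on either side. Removing print-block medians gave Ir8a a channel mean of -0.069, -0.15 as deposited, and Ir25a one of 0.054, -0.03 as deposited.

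Ir56d, a receptor of adult taste neurons, had 0.607 and 0.379, for a channel mean of 0.49 ± 0.161 (SD, n = 2 arrays; 3.11-fold if log10, 1.41-fold if log2; limma adjusted p = 0.705) and a dye mean of 0.11 ± 0.697. Its neighbours Ir56b, with 0.08 and 0.298, and Ir56c, with 0.052 and 0.365, were also positive on both arrays as deposited. Replicate 2 was like Ir56d for both, and replicate 1 was far lower. Ir40a, which serves dry-air sensing, had 0.375 and 0.272 (limma adjusted p = 0.728), and Ir11a had 0.196 and 0.445 (limma adjusted p = 0.749). On the negative side were Ir7a, with -0.103 and -0.139, and Ir75c, an acid receptor of the antenna, with -0.116 and -0.122. Their channel means of -0.12 each were -0.0262 for Ir7a and -0.0462 for Ir75c once print-block medians were removed.

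Ir76a was the member with the lowest adjusted p of the dye reading. It had -0.372 on replicate 1 and 0.534 on replicate 2, large and of opposite sign, for a dye mean of -0.45 ± 0.115 (SD, n = 2 arrays; 2.84-fold if log10, 1.37-fold if log2; limma adjusted p = 0.396) and a channel mean of 0.08 ± 0.641, which was -0.031 with print-block medians removed. Ir68a, a moist-air receptor that is also used in the larva, had -0.194 and 0.077, and Ir7c, which serves salt taste, had -0.17 and 0.115, both negative on both arrays in the dye reading. Ir7b had 0.381 and -0.142, for a dye mean of 0.26 ± 0.169 (limma adjusted p = 0.818), and Ir67a had 0.131 and -0.117. The Ir10a gene had 2 probes, 1 at 0.072 and -0.145 and the other at -0.276 and -0.294.

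Larval receptors were then set against the others. By channel the 35 measured larval receptors had a median of 0.105 ± 0.0124 (SD of the 2 array medians) and the 77 others 0.043 ± 0.0049, a difference of 0.062. It was 0.0415 on replicate 1, 0.031 on replicate 2 and 0.0458 with print-block medians removed. Positive on both arrays were 19 of 35 larval receptors (54.3%) and 39 of 77 others (50.6%), and negative on both were 5 (14.3%) and 19 (24.7%). By dye the larval median was 0.0365 ± 0.121 and that of the others 0.003 ± 0.07, a difference of 0.0335 that was -0.031 on replicate 2 alone. By family, the channel-reading medians of larval and other genes were 0.133 and 0.048 for Or, 0.0845 and 0.014 for Gr, and 0.078 and 0.041 for Ir. By dye they were -0.009 and 0.004 for Or, 0.0635 and 0.005 for Gr, and 0.032 and -0.0055 for Ir. Since the members were chosen by name with earlier results known, no test was made of these differences.

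**Figure D4:**
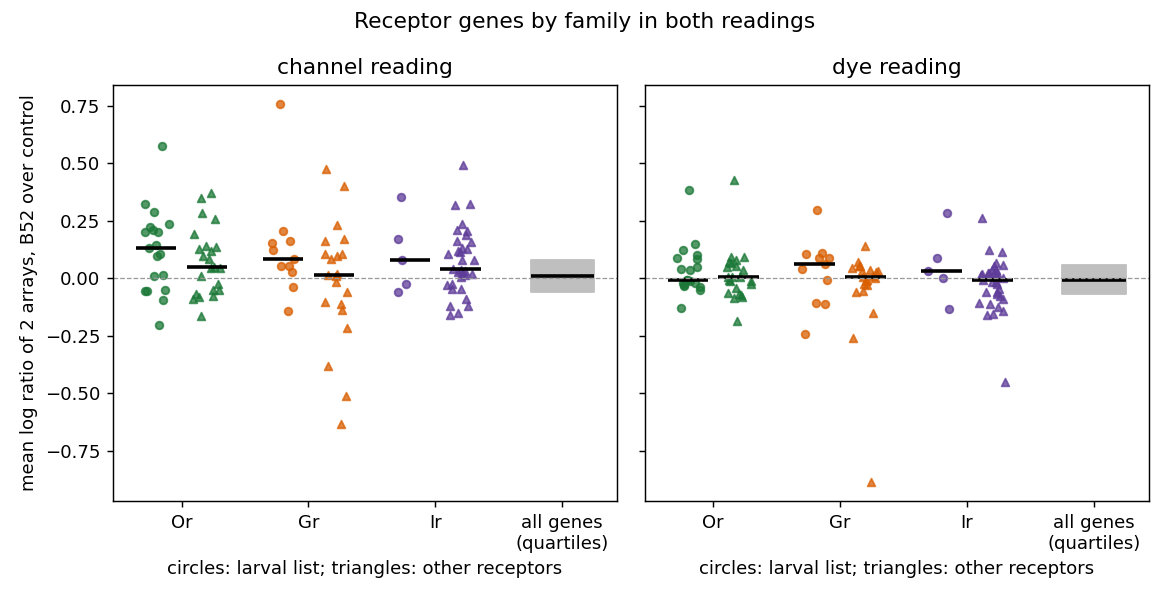
Mean log ratio of the 2 arrays, B52 over control (y axis), for each receptor gene by family (colour), in the channel reading (left panel) and the dye reading (right panel). Black bars are medians of larval-list genes (circles) and other receptors (triangles), and the grey box is the interquartile range of all genes, with medians of 0.0085 and -0.0075.

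Close relatives on the chromosome can share sequence and so cross-hybridise, and the probe sequences are not given here. Among measured genes, 9 pairs of one family were immediate neighbours in the RefSeq gene order. Their members differed by a median of 0.135 in the channel reading, against 0.156 over all 2060 pairs within a family, and by 0.0875 in the dye reading, against 0.086. The mean had the same sign in 8 of 9 neighbour pairs by channel and in 4 of 9 by dye, against 56.1% and 49.1% of all pairs within a family. The 9 pairs rest on 16 genes, since some genes stand in more than 1 pair.

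The other gene groups of these sense organs were read from lists of their own. The Obp genes, measured for 38 of 49, had a channel-reading median of -0.0178 ± 0.121 (SD of the 2 array medians) and a dye-reading median of 0.061 ± 0.0194. By channel 9 (23.7%) were positive and 11 (28.9%) negative on both arrays, where 28.1% and 24.3% of all genes were. By dye 15 (39.5%) were positive and 3 (7.89%) negative on both, where 21.9% and 25.6% of all genes were. Of 26 genes for olfactory co-factors, transcription factors of sensory neurons and other chemosensory channels, 22 had probes and 14 were measured on both arrays. Their channel-reading median was 0.056 ± 0.0767 (SD of the 2 array medians), with -0.015 on replicate 1 and 0.0935 on replicate 2, so the sign differed between arrays. Their dye-reading median was -0.0345 ± 0.0555. Positive on both arrays were 6 (42.9%) by channel and 1 (7.14%) by dye, where 28.1% and 21.9% of all genes were. Negative on both were 1 (7.14%) by channel and 6 (42.9%) by dye, where 24.3% and 25.6% of all genes were. Eip93F, an ecdysone-induced transcription factor that olfactory neurons need for receptor expression, had 0.729 and 0.509, for a channel mean of 0.62 ± 0.156 (SD, n = 2 arrays). Its dye mean was 0.11 ± 0.875. The channel gene ppk25, used in pheromone sensing, had 0.064 and 0.305, and the nuclear receptor gene svp had 0.111 and 0.102, a channel mean of 0.11 that was 0.0377 with print-block medians removed. By dye the ammonium transporter gene Amt had the largest value of this list, with -0.224 and 0.267 as deposited and a mean of -0.25 ± 0.0304.

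Markers of cell types that a larva holds were read beside the receptors. Of 13 neuronal markers, 10 were measured on both arrays, with medians of 0.0095 on replicate 1 and 0.001 on replicate 2, 3 of them positive and 3 negative on both as deposited. Of 11 muscle markers 6 were measured, and all 6 were positive on replicate 1 and negative on replicate 2, with medians of 0.231 and -0.507. Read by dye, all 6 muscle markers were thus positive on both arrays, where 21.9% of all genes were. Their median was 0.3485 ± 0.1955 (SD of the 2 array medians). The size rule passed 2 of the muscle markers as higher in B52 larvae in that reading, where 1.13% of all genes were. It also passed 3 of the 38 measured Obp genes as higher by dye. Of 6 fat body markers 3 were measured, with medians of 0.173 and 0.064. Of 8 genes of sensory neurons and their support cells 7 were measured, with medians of 0.367 and 0.028. As deposited, 3 of them were positive on both arrays and 0 negative, where 28.1% and 24.3% of all genes were. The 3 were nompA (0.159 and 0.028), iav (0.647 and 0.169) and nan (0.434 and 0.303). The others had opposite signs. Gdap2 had 0.2943 and -0.0797 as a mean over its probes. Obp28a (0.451 and -0.42), Obp44a (-0.131 and 0.107) and Obp56a (0.367 and -0.599) are also Obp genes. By channel the size rule passed 1 gene of this list as higher, where 0.728% of all genes were. By dye it passed 2 as higher, where 1.13% of all genes were. By dye the list medians were 0.0152 for neurons, 0.0545 for fat body and 0.187 for this list. The median of the neuronal list was near 0 on both arrays where the receptor median was 0.066 and 0.064, but its genes ran both ways. Positive on both arrays were ChAT (0.129 and 0.217), VGlut (0.204 and 0.125) and cac (0.028 and 0.222). Negative on both were nSyb (-0.0275 and -0.1335), fne (-0.08 and -0.162) and Rdl (-0.05 and -0.027). The nSyb values are means of 2 probes, 1 at 0.036 and -0.008 and the other at -0.091 and -0.259. The part of any of these cell types in the receptor values was not tested.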

How the data were processed

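Both arrays were used, and each compares B52 with control RNA. The authors deposited 1 log ratio per spot, treated as a score because its base, direction and normalisation are not stated, and the image analysis is not given in the sources used here. Of 15744 spots per array, 13919 and 14026 held values, and 5 spots of replicate 1 with a missing code were left out. The 960 spots at positions without a name in all 24 print blocks were taken as controls and left out of the test. Symbols came from the platform annotation and were updated through gene IDs to RefSeq, which matched 163 of the 164 receptor genes.

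Probes of a gene measured on both arrays were averaged. The 12500 probes were tested with limma 3.58.1 (R 4.3.3), a linear fit per probe against 0 followed by eBayes, on 1 residual degree of freedom. Benjamini-Hochberg adjustment ran over all of them. The code was tested on simulated data. Figures used matplotlib 3.10.9, and other steps scipy 1.17.1, pandas 2.3.3 and numpy 2.4.6 under Python 3.11.15. The design had assumed the same kind of values. A ± is the SD of the 2 arrays or array medians. The number of arrays limits the precision.

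Named genes were a set of well-studied receptors, then in each family and reading the 3 positive and 3 negative genes whose array nearer to 0 had the largest absolute value, every gene past the size rule, the gene in each family with the largest difference between readings, and up to 3 accessory genes. Others were chosen after their values were seen. Members, lists and rules were chosen with earlier results of these data known. Alternatives covered centring, scaling, print blocks, probe averaging, genes with 1 array, the variance model, thresholds and single arrays. Counts of signs were given alternatives after seeing the data. No sequences or gene coordinates are given, since no build is named for the array.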

Additional observations from a re-analysis of the deposited data

How the results depend on the processing

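Limma called 0 probes in each reading under each alternative (robust and ordinary variance, centring, scaling, print-block removal and an adjusted p of 0.1). With 1 array left out no residual degree of freedom remains, so no test was run there. No paired analysis was possible because both arrays belong to 1 group and each already holds both RNAs. In the channel reading the receptor median of 0.0777 was 0.0718 with centring, 0.0745 with scaling, 0.0457 with print-block medians removed and 0.056 with genes of 1 array kept. With print-block medians removed the family medians were 0.0668 for Or, 0.0263 for Gr and 0.0464 for Ir, and the larval difference was 0.0458. The Gr median was 0.0475 with centring and 0.0295 with genes of 1 array kept, where the Ir median was 0.0775. On single arrays the channel-reading medians ran from 0.064 to 0.066 for receptors, 0.059 to 0.0985 for Or, 0.0345 to 0.039 for Gr and 0.0595 to 0.073 for Ir, and the larval difference from 0.031 to 0.0415. In the dye reading single arrays gave -0.064 to 0.066 for receptors, -0.059 to 0.0985 for Or, -0.0345 to 0.039 for Gr, -0.073 to 0.0595 for Ir and -0.031 to 0.0415 for the larval difference. The dye-reading medians moved by less than the spread between arrays under every other alternative, although the Or median of -0.002 was 0.003 with centring and 0.0184 with print-block removal. The size rule passed 7 receptors by channel and 1 by dye. It passed 13 and 3 at a log ratio of 0.2, 0 and 0 at a log ratio of 1, and 17 to 18 on single arrays. Shares of all genes under these other limits are not given here, so these counts cannot be set against the array. Single arrays had 71 to 75 positive and 37 to 41 negative receptors as deposited, and 41 to 75 positive and 37 to 71 negative in the dye reading. The blank share of 32.5% was 31.7% when genes were counted. Of 53 named genes, print-block removal changed the sign of 8 by channel and 4 by dye, and scaling changed 0. Against the mean of both arrays, replicate 1 alone changed the sign of 12 by channel and 10 by dye, and replicate 2 alone that of 9 by channel and 22 by dye. The cause of these shifts was not tested. Without intensities, signal over background is unknown for every probe.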

Other observations

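Receptor probes with a value on 1 array only enter no comparison above. There were 7 with a value on replicate 1 alone and 23 with a value on replicate 2 alone, 13 of the 23 from the gustatory family. Past an absolute log ratio of 0.301 lay 2 of the 7 and 7 of the 23 (30.4%), against 15.8% on each array for receptor probes measured on both. Over all probes with 1 gene the shares were 33.1% for those measured on replicate 1 alone and 30.6% for those measured on replicate 2 alone. For those measured on both they were 8.51% on replicate 1 and 9.92% on replicate 2. The receptor share for replicate 1 alone, 28.6%, was thus not above that of all such probes. Ir67c had -1.06 on replicate 1, and on replicate 2 Ir94a had 0.738, Gr85a -0.743, Gr22f -0.664 and Gr36b -0.602. These genes were chosen after their values were seen.

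Genes that work with the odorant receptors were also measured in part. Orco, the subunit shared by all odorant receptors, had a single probe with -1.446 on replicate 1 and no value on replicate 2. The probe of acj6, a transcription factor of olfactory neurons, had -0.591 on replicate 1 alone, and that of Snmp1, a membrane protein of pheromone-sensing neurons, had 0.517 on replicate 2 alone. Other accessory genes with a value on 1 array only lay nearer to 0. They were ppk23 (-0.341) and Rh50 (-0.129) on replicate 1, and Itpr (-0.109) and Snmp2 (0.062) on replicate 2.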
